A study of Mus musculus with 3 samples.

Results

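The immunoglobulin kappa variable segments (Igkv) were described in mandibular condyles of mice with and without dentin sialophosphoprotein (Dspp). The segments were taken as every row of the deposited table whose gene symbol begins with Igkv, which gave 100 segments of 26970 genes. GENCODE M21, an annotation of the mouse genome, lists 160 Igkv genes, and of the 100 in the table it classes 90 as functional variable genes and 10 as pseudogenes. The 3 libraries came from condyles of 4-month-old mice: WT (Dspp+/+), Dspp+/- with 1 deleted allele, and Dspp-/- with no intact allele. Each genotype has 1 library, made from tissue pooled over 3 animals for WT and for Dspp+/-, while the number of animals behind Dspp-/- is not given in the sources used here. The condyles were taken with cartilage and subchondral bone together, so cells of the bone marrow can be part of the sample. The Dspp gene itself was not analysed here, so it gives no check of the genotype labels. With no replicates, every difference below compares single libraries, no test between genotypes could be run, and the spread between mice is unknown.

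Kappa is the light chain that most mouse antibodies carry. A developing B cell joins a single Igkv segment to a joining segment upstream of the constant gene Igkc, and its descendants usually keep that choice. The variable segment encodes most of the antigen-binding part of the light chain, including the start of the loop that spans the join. Resting B cells hold few antibody transcripts per cell, whereas plasma cells, the antibody-secreting descendants of B cells, hold very many. The share of each segment in a tissue is therefore a share of transcripts, not of cells. In these bulk samples more cells of a type and more RNA per cell cannot be told apart.

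Within the table the 100 segments lie on chromosome 6 between positions 67532481 and 70681161, a stretch of 3.15 Mb, and Igkc follows at 70703419 to 70703950 on the plus strand. No segment has the same position in GRCm38, and the build of the table is not given in the sources used here, so distances are taken within the table. Sequences and their positions are from GENCODE M21 (GRCm38), where all 100 segments had an entry and 90 a coding sequence. The ends of the segments that ranked highest in WT (Igkv17-127, Igkv12-41 and Igkv12-46), in Dspp+/- (Igkv1-110, Igkv1-122 and Igkv5-39) and in Dspp-/- (Igkv1-135, Igkv4-55, Igkv3-4 and Igkv6-15) are shown, because the results that follow turn on these leaders. Each line gives the 30 coding bases before the conserved cysteine codon near the end of the segment, that codon in capitals, and the bases up to the join, 5′ to 3′ on the strand of the gene. Everything printed is exonic and coding.
Igkv17-127 (chr6:67861153-67861659, +): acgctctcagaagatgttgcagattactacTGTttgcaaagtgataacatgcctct
Igkv12-41 (chr6:69858420-69858884, -): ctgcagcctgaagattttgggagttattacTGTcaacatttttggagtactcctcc
Igkv12-46 (chr6:69764523-69765022, -): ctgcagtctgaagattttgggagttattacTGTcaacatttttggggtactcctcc
Igkv1-110 (chr6:68270485-68271267, +): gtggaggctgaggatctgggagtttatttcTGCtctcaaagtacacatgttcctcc
Igkv1-122 (chr6:68016718-68017488, +): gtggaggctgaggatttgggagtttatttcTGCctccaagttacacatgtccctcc
Igkv5-39 (chr6:69900424-69900977, -): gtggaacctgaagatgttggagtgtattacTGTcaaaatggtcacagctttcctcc
Igkv1-135 (chr6:67609713-67610508, +): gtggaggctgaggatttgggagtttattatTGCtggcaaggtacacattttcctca
Igkv4-55 (chr6:69607275-69607828, -): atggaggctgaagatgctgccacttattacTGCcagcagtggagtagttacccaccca
Igkv3-4 (chr6:70671788-70672377, +): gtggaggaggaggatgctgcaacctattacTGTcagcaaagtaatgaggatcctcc
Igkv6-15 (chr6:70406469-70406992, -): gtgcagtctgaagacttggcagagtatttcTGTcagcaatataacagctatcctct

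Levels are given as FPKM, fragments scaled to gene length and to library size, and the number of sequenced fragments behind each value was recovered from the FPKM and the gene length. The libraries held 20241579 fragments in WT, against 23613622 in Dspp+/- and 22253164 in Dspp-/-. For a segment of the median length of 359 bases, 3 fragments are worth 0.413, 0.354 and 0.376 FPKM, and a segment at or under 3 fragments was treated as not detected above the floor. Several facts of the whole libraries ran with the genotypes. Of the summed FPKM, mitochondrially encoded genes took up 25.0% for WT, 36.9% for Dspp+/- and 37.3% for Dspp-/-. Xist, which female cells transcribe, had 2 WT fragments against 12084 in Dspp+/- and 10563 in Dspp-/-, and the labels give no sex. In the order WT, Dspp+/- and Dspp-/-, 4 neutrophil markers summed to 386, 1761 and 2200 FPKM and 3 erythroid markers to 822, 3425 and 3270 FPKM, and all 7 were at least 2-fold higher than WT in both mutant libraries, where 4.88% of all genes compared were in Dspp+/- and 4.05% in Dspp-/-. The 4 osteoblast markers summed to 8297, 2198 and 4520 FPKM (4 lower than WT in Dspp+/- and 1 in Dspp-/-, where 2.86% and 1.37% of all genes were), the 4 chondrocyte markers to 1322, 427 and 583 FPKM (3 lower in each) and the 3 osteoclast markers to 2170, 765 and 1251 FPKM (3 and 0 lower). The neutrophil and erythroid sums were thus lower in WT than in the mutant libraries and the skeletal sums higher, and no marker of these lists was at 0. The part of sex and of tissue composition in the results was not tested.

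All Igkv segments together were at 182 FPKM in WT, 426 FPKM in Dspp+/- and 298 FPKM in Dspp-/-, from 1351, 3736 and 2456 fragments. WT had the lowest sum and Dspp+/- the highest. Counted in fragments per library size, the sum was 2.37-fold that of WT in Dspp+/- (95% interval 2.23 to 2.52) and 1.65-fold in Dspp-/- (1.55 to 1.77), and Dspp-/- stood at 0.698 of Dspp+/- (0.663 to 0.734). These and all later intervals are exact binomial (Clopper-Pearson) intervals, which cover counting error only. Igkc, the constant region that every kappa transcript carries, was at 301 FPKM in WT, 841 FPKM in Dspp+/- and 721 FPKM in Dspp-/-. Dspp+/- held 2.79 times the WT level of Igkc (2.69 to 2.91) and Dspp-/- 2.40 times (2.30 to 2.50). The summed Igkv level as a percentage of Igkc was 60.6% in WT, with 50.6% in Dspp+/- and 41.4% in Dspp-/-, so relative to Igkc WT stood highest and Dspp-/- lowest.

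The libraries differed in how many segments they used. Above 3 fragments there were 38 segments in WT, against 73 in Dspp+/- and 58 in Dspp-/-, and with at least 1 fragment there were 57, 88 and 78. At least 10 FPKM was reached by 5 segments in WT, with 13 in Dspp+/- and 10 in Dspp-/-, and at least 1 FPKM by 30, 57 and 52. WT therefore used the fewest segments and Dspp+/- the most on each of these counts. The WT library also held the fewest Igkv fragments, and fewer fragments show fewer segments. Drawn down to the 1351 fragments of WT, Dspp+/- would be expected to show 56.1 segments above 3 fragments and Dspp-/- 53.6, against 38 in WT. At this common number WT still stood lowest, and the mutant libraries stood closer to each other than at their own depths.

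Of the 100 segments, 33 were above 3 fragments in every library, and they held 80.0% of the Igkv FPKM in WT, against 68.1% in Dspp+/- and 68.0% in Dspp-/-. Another 22 were above the floor in both mutant libraries and not in WT, and these held 1.73%, 16.8% and 29.2%. A further 15 were above it in Dspp+/- alone, 3 in Dspp-/- alone, 3 in WT and Dspp+/- and 2 in WT alone, and 22 were above it in no library. The pair seen above the floor in WT alone was Igkv12-41 and Igkv4-62. These counts were taken at unequal totals of 1351, 3736 and 2456 Igkv fragments, and more fragments lift more segments over the floor. Some of the 15 lie just over it, such as Igkv5-45 with 3, 4 and 0 fragments. No matching share over all genes was taken. The 43 segments listed at 0 in WT accounted for 13.3% of the Igkv FPKM in Dspp+/- (491 fragments) and 16.2% in Dspp-/- (393 fragments). Each segment at 0 in WT may hold up to 3 fragments, the limit that a count of 0 allows. The 10 pseudogenes were nearly silent, at 0 fragments in WT, with 11 in Dspp+/- and 8 in Dspp-/-. Among them Igkv4-77 reached 6 fragments in Dspp+/-, which was the highest pseudogene value in any library.

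Expression was most concentrated in WT. The single highest segment held 14.3% of the Igkv FPKM in WT, against 11.2% in Dspp+/- and 7.07% in Dspp-/-. The 5 highest segments of each library held 51.6%, 37.3% and 30.8%, and the 10 highest 68.7%, 53.1% and 50.02%. As shares of fragments the 10 highest held 68.5% in WT (66.0% to 71.0%), 53.8% in Dspp+/- (52.2% to 55.4%) and 50.2% in Dspp-/- (48.2% to 52.2%). The interval of WT did not overlap those of the mutant libraries, and those of the mutant libraries met at about 52.2%. The 10 were picked from the same counts, which raises their share and which the intervals do not allow for. Unlike the numbers of segments, the top shares and the index below were not drawn down to a common number of fragments. To reach 50% of the Igkv FPKM took 5 segments in WT, with 9 in Dspp+/- and 10 in Dspp-/-, and to reach 90% took 24, 42 and 38. The inverse Simpson index, which is the number of equally used segments that would give the same concentration, was 14.7 in WT, against 24.1 in Dspp+/- and 29.5 in Dspp-/-. By top share and by this index Dspp-/- was the most even library, although Dspp+/- used more segments.

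**Figure D1:**
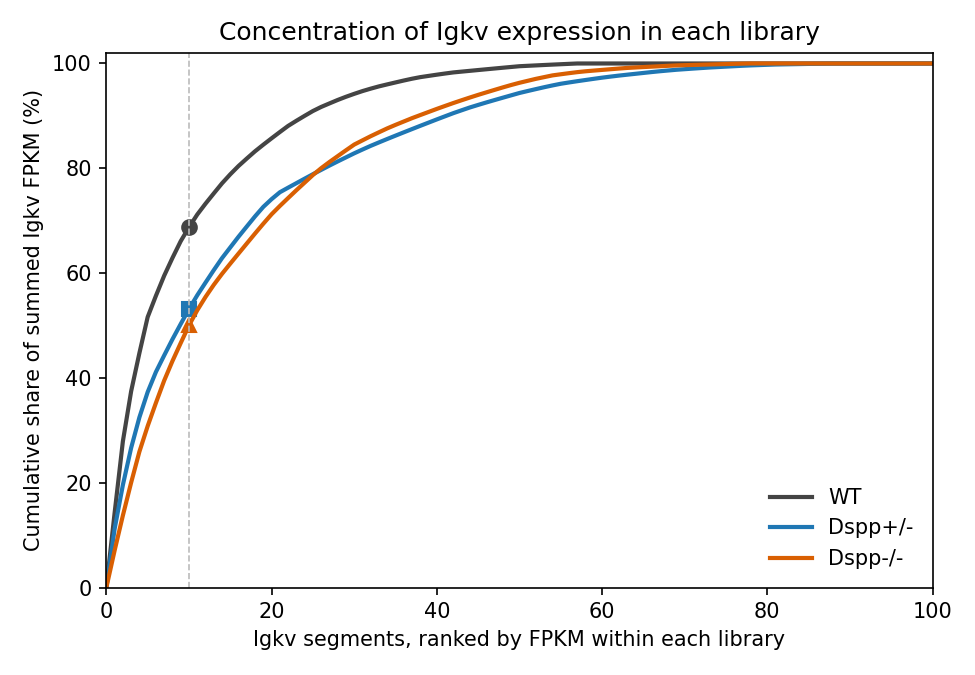
Cumulative share of the summed Igkv FPKM (y axis, percent) against the number of segments, ranked by FPKM within each library (x axis), with 1 line per library and a marker at the 10 highest segments. At 10 segments the WT line stands at 68.7%, the Dspp+/- line at 53.1% and the Dspp-/- line at 50.02%, and the mutant lines cross further right.

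The segments that led each library were largely different. The 10 highest segments of the libraries made up 22 distinct segments, and Igkv5-39 alone was among the 10 highest in all 3 libraries. The 10 leaders of WT, which held 68.7% there, held 18.9% of the Igkv FPKM in Dspp+/- and 24.7% in Dspp-/-. The 10 leaders of Dspp+/- held 12.5% in WT and 22.0% in Dspp-/-, and those of Dspp-/- held 20.9% in WT and 37.7% in Dspp+/-. A library's own leaders are chosen for being high there, so part of each drop follows from the choice. Summed over segments, the smaller of the pair of shares came to 34.7% for WT and Dspp+/-, 45.1% for WT and Dspp-/-, and 53.8% for the mutant libraries. Across the 100 segments, Spearman's rho between FPKM values was 0.51, 0.55 and 0.66 for the same pairs. These correlations are descriptions across segments that share their library, its depth and the sequence of their relatives, and segments are not replicates.

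In WT, Igkv17-127 was the highest segment, at 26.0 FPKM (189 fragments), against 3.66 FPKM (31) in Dspp+/- and 6.88 FPKM (55) in Dspp-/-. It was high in WT and low in both mutant libraries, at 0.141 of the WT level in Dspp+/- (0.0929 to 0.206) and 0.265 in Dspp-/- (0.192 to 0.359). Igkv12-41 was nearly as high in WT, at 24.9 FPKM (175 fragments), and stood at 0.244 FPKM (2 fragments) in Dspp+/- and 0.389 FPKM (3) in Dspp-/-. The mutant libraries were at or under the floor for this segment, with ratios to WT of 0.00980 (0.00118 to 0.0359) and 0.0156 (0.00318 to 0.0463). Igkv12-46, a close relative of Igkv12-41, was at 17.4 FPKM (133 fragments) in WT, 2.81 FPKM (25) in Dspp+/- and 2.38 FPKM (20) in Dspp-/-. It too was high in WT alone, although the mutant libraries still held it well above the floor. These 3 segments held 37.5% of the Igkv FPKM of WT. Igkv6-25 was also highest in WT, with 7.41 FPKM (57 fragments) in WT, 0.669 FPKM (6) in Dspp+/- and 1.66 FPKM (14) in Dspp-/-. Igkv4-58 was at 2.90 FPKM (21 fragments), 0.591 FPKM (5) and 0.126 FPKM (1), and its ratio to WT in Dspp-/- was 0.0433 with an interval from 0.00105 to 0.269. Igkv9-124 was low in Dspp+/- only: it had 7.00 FPKM (50 fragments) in WT, 0.840 FPKM (7) in Dspp+/- and 4.71 FPKM (37) in Dspp-/-.

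The next WT leaders, Igkv4-55 and Igkv1-135, were abundant in all 3 libraries. Igkv4-55 was at 13.3 FPKM (102 fragments) in WT, 11.2 FPKM (100) in Dspp+/- and 19.9 FPKM (168) in Dspp-/-. Igkv1-135 was at 12.5 FPKM (100 fragments), 8.71 FPKM (81) and 21.1 FPKM (185), and was the highest segment of Dspp-/-. Both were somewhat higher in Dspp-/- than in WT, with ratios of 1.498 (1.16 to 1.94) and 1.68 (1.31 to 2.17), which stayed under 2-fold. In Dspp+/- the ratio to WT was 0.840 (0.631 to 1.12) for Igkv4-55 and 0.694 (0.511 to 0.940) for Igkv1-135. Their shares of the Igkv FPKM were lower in Dspp+/- than in WT, at 2.62% against 7.29% for Igkv4-55 and 2.04% against 6.87% for Igkv1-135.

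In Dspp+/- the 5 leading segments were all at lower levels in WT. Igkv1-110 was at 1.11 FPKM (9 fragments) in WT, 47.6 FPKM (451) in Dspp+/- and 11.1 FPKM (99) in Dspp-/-. Its Dspp+/- value was the highest of any segment in any library, at 43.0-fold the WT level (22.4 to 94.6), and Dspp-/- stood between the other libraries. Igkv1-122 was at 0.129 FPKM (1 fragment) in WT and 35.7 FPKM (323) in Dspp+/-, and it was listed at 0 in Dspp-/-. It was thus above the floor in Dspp+/- alone, with a ratio to WT of 277 whose interval runs from 49.3 to 10969, and at least 101-fold lower in Dspp-/- than in Dspp+/- against a floor of 3 fragments. Igkv5-39, the segment shared among the leaders of all libraries, was at 4.84 FPKM (34 fragments), 30.1 FPKM (247) and 12.7 FPKM (98). Igkv6-17 was at 3.15 FPKM (24 fragments) in WT, 24.8 FPKM (221) in Dspp+/- and 3.34 FPKM (28) in Dspp-/-. It was high in Dspp+/- only, and WT and Dspp-/- did not differ beyond counting error (ratio 1.06, 0.593 to 1.91). Igkv10-96 was at 1.79 FPKM (13 fragments), 20.5 FPKM (174) and 10.3 FPKM (82), and Igkv14-111 at 0.269 FPKM (2 fragments), 12.4 FPKM (108) and 5.74 FPKM (47). Both were low in WT and higher in Dspp+/- than in Dspp-/-. Igkv6-32 was at 2.29 FPKM (17 fragments), 10.3 FPKM (89) and 0.982 FPKM (8), highest in Dspp+/- and lowest in Dspp-/-.

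In Dspp-/- the leaders Igkv3-4 and Igkv8-30 were under the floor in WT. Igkv3-4 was listed at 0 in WT and was at 9.76 FPKM (83 fragments) in Dspp+/- and 18.7 FPKM (150) in Dspp-/-. Against 3 fragments in WT, Dspp+/- stood at least 23.7-fold higher and Dspp-/- at least 45.5-fold. Igkv8-30 was at 0.269 FPKM (2 fragments) in WT, 2.76 FPKM (24) in Dspp+/- and 14.5 FPKM (119) in Dspp-/-. Dspp-/- stood apart for this segment, at 54.1-fold the WT level (14.7 to 452) and 5.26-fold the Dspp+/- level (3.37 to 8.53). Igkv5-48 had the same order, with 0.961 FPKM (7 fragments), 3.29 FPKM (28) and 13.2 FPKM (106). Igkv6-15 was at 2.14 FPKM (15 fragments), 10.1 FPKM (83) and 17.6 FPKM (136), and Igkv10-94 at 0.142 FPKM (1 fragment), 3.30 FPKM (27) and 5.83 FPKM (45). Both were lowest in WT and highest in Dspp-/-. Igkv5-43 was listed at 0 in WT and reached 7.71 FPKM (69 fragments) in Dspp+/- and 7.59 FPKM (64) in Dspp-/-, at least 19.7-fold and at least 19.4-fold above 3 fragments in WT. The mutant libraries did not differ for it beyond counting error (ratio 0.984, 0.689 to 1.40).

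**Figure D2:**
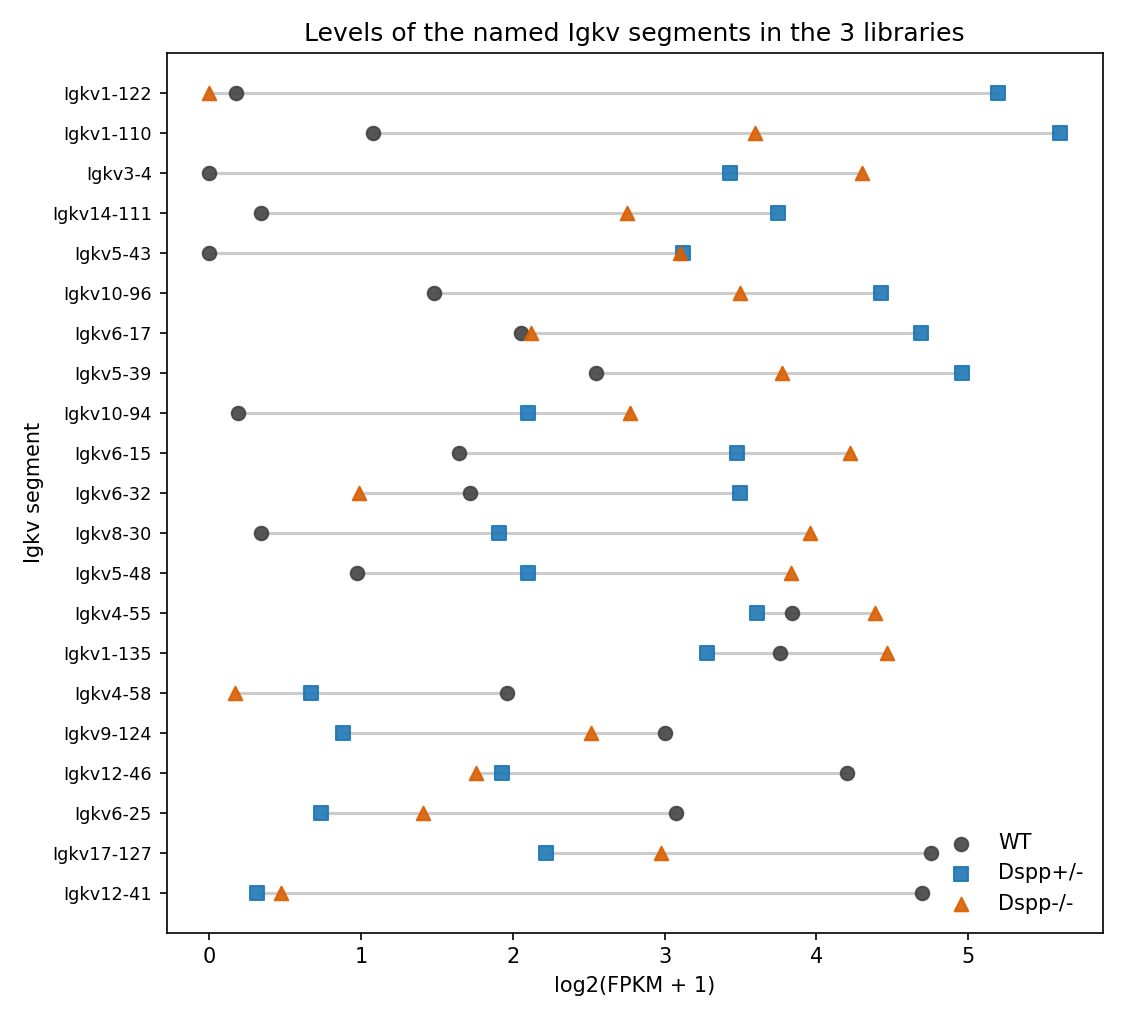
Levels of the 21 named Igkv segments (y axis) as log2(FPKM + 1) (x axis), with 1 marker per library and a line from the lowest to the highest library. Igkv1-122 runs from 0 in Dspp-/- to its Dspp+/- level of 35.7 FPKM, while Igkv12-41 and Igkv17-127 have their highest marker in WT.

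Segment by segment, the libraries were compared on the log2(FPKM + 1) scale, which understates the change of low segments, among segments whose 3 libraries averaged at least 1 FPKM. This left 55 segments, which held 96.7% of the Igkv FPKM in WT, against 94.3% in Dspp+/- and 95.3% in Dspp-/-, and the other 45 had at most 23 fragments in any library. Of the 55, 36 were at least 2-fold higher in Dspp+/- than in WT, where 4.88% of the 13026 genes compared were, and 6 were at least 2-fold lower, where 2.86% of genes were. In Dspp-/-, 25 were higher than in WT against a background of 4.05% of genes, and 8 were lower against 1.37%. Between the mutant libraries, 8 were higher in Dspp-/- than in Dspp+/- against 0.852% of genes, and 17 were lower against 0.798%. Scaled to the Igkv sum of each library, which compares shares in place of levels, 20 were higher and 13 lower in Dspp+/- than in WT, 19 and 11 in Dspp-/- than in WT, and 15 and 9 in Dspp-/- than in Dspp+/-, so between the mutant libraries the more frequent direction turned. This scaling moved the median log2 ratio of all genes compared to -0.949, -0.591 and 0.363 in the same order. The share of all genes past the threshold was not taken on it, so the background shares above do not apply to these counts. On the levels as deposited, the shares of segments past the threshold were above the background in both directions in each comparison. The background genes were not matched to the segments in length or in fragments, so counting error may weigh differently on the segments and on the background. The median log2 ratio of the 55 was 1.54 in Dspp+/- and 0.91 in Dspp-/- against WT, beside 0.06 and 0.01 over all genes compared, and -0.08 between the mutant libraries, beside -0.04. The comparisons share libraries, so they are not independent of each other.

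The filter let 26 of the 55 segments pass with under 1 FPKM in WT, 11 of them at 0 there, and such segments could differ in 1 direction only. The counts above are therefore a description of the segments that passed. Among the 30 segments with at least 1 FPKM in WT, which are chosen for a WT level and so lean to the other side, 12 were higher and 7 lower in Dspp+/-, and 8 were higher and 9 lower in Dspp-/-. Against WT, 22 of the 55 were higher in both mutant libraries and 5 were lower in both, and 8 were past the threshold in neither. Both comparisons use the same WT library, so some joint calls follow from the design. No matching share over all genes was taken for these counts or for those of the 30 segments. The 5 lower in both were Igkv17-127, Igkv12-41, Igkv12-46, Igkv6-25 and Igkv4-58. Igkv6-14 alone passed in opposite directions, at 5.84 FPKM (41 fragments) in WT, 13.4 FPKM (110) in Dspp+/- and 2.20 FPKM (17) in Dspp-/-. It was named after its values were seen. Beyond counting error, the segments did not all move by a common factor. Of 44 tested segments with fragments in both libraries, the counting interval of the Dspp+/- to WT ratio lay wholly above the ratio of the sums for 18 and wholly below it for 14. The same counts were 16 and 10 of 42 segments for Dspp-/- against WT, and 21 and 16 of 51 between the mutant libraries. No such count was made over all genes, so these counts do not set the segments apart from other genes.

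Igkv segments fall into families of related sequence, and the 100 segments represent 17 of them. Family Igkv12, with 8 segments, held 25.8% of the Igkv FPKM in WT, against 4.08% in Dspp+/- and 3.83% in Dspp-/-, and family Igkv17, with 2 segments, held 14.4%, 1.71% and 4.22%. Both families had their highest share in WT, and in each the share of WT came mainly from the leaders described above. Family Igkv1, with 8 segments, held 9.64% in WT, with 26.8% in Dspp+/- and 17.1% in Dspp-/-. As shares of fragments it stood at 10.3% (8.72% to 12.03%), 28.4% (26.98% to 29.9%) and 18.2% (16.7% to 19.8%), with no overlap between the intervals. The Igkv3 family held 1.44%, 7.08% and 9.95%, Igkv5 held 3.39%, 9.85% and 11.2%, Igkv10 held 1.14%, 5.62% and 5.92%, and Igkv14 held 0.53%, 3.92% and 3.40%. These 4 families were lowest in WT. Igkv9 was lowest in Dspp+/-, with 5.91%, 0.68% and 3.32%. The largest family, Igkv4, with 27 segments, held 18.8%, 13.1% and 17.5%, and Igkv6 held 12.2%, 15.8% and 11.3%.

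**Figure D3:**
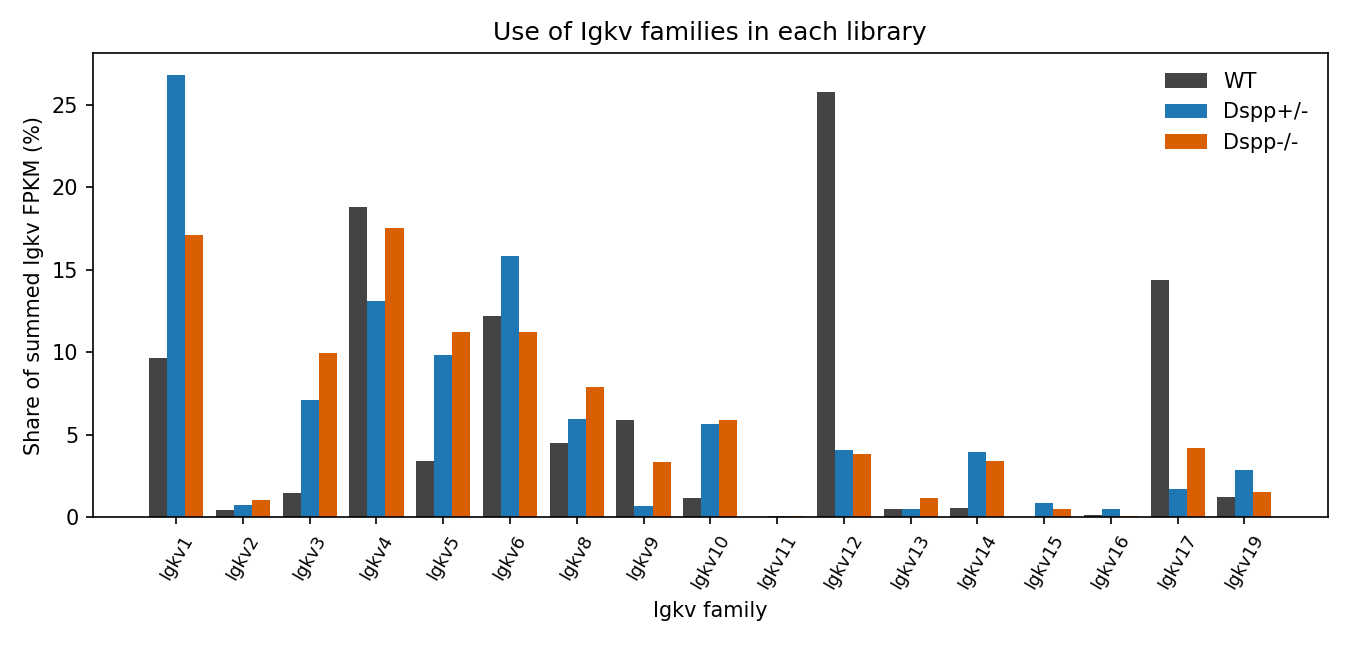
Share of the summed Igkv FPKM (y axis, percent, from 0) held by each of the 17 Igkv families (x axis), with 1 bar per library and no error bars. The tallest bars are those of Igkv1 in Dspp+/- (26.8%) and of Igkv12 in WT (25.8%), and Igkv4 stands between 13.1% and 18.8% in all libraries.

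A family share hides differences between its members. Family Igkv6 held similar shares in WT and Dspp-/-, yet its member Igkv6-25 was highest in WT and its member Igkv6-17 highest in Dspp+/-. Their coding sequences are 95.7% identical, and of the 23 bases after the conserved cysteine codon 1 differs. The last 300 coding bases of both are shown to place the differences, with the bases of Igkv6-17 that differ from Igkv6-25 in capitals, 13 in this stretch.
Igkv6-25 (chr6:70215400-70215957, +): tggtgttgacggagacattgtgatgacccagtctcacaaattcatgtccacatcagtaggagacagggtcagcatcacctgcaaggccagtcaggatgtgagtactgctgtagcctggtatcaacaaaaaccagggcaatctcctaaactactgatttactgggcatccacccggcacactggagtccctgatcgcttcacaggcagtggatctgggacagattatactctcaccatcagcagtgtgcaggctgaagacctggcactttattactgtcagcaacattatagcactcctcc
Igkv6-17 (chr6:70371439-70371993, +): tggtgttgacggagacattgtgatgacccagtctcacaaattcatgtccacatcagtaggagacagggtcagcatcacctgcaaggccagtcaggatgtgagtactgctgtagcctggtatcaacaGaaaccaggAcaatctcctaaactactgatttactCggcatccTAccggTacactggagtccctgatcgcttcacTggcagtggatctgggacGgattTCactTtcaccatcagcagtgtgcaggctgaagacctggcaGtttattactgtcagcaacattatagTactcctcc

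The leading pair of Dspp+/-, Igkv1-110 and Igkv1-122, is 93.6% identical, with 23 coding bases that differ, 6 of them among the 23 bases after the cysteine codon. Igkv1-110 had 99 fragments in Dspp-/- where Igkv1-122 had 0. All 23 differences lie in the last 300 coding bases, where those of Igkv1-122 against Igkv1-110 are in capitals.
Igkv1-110 (chr6:68270485-68271267, +): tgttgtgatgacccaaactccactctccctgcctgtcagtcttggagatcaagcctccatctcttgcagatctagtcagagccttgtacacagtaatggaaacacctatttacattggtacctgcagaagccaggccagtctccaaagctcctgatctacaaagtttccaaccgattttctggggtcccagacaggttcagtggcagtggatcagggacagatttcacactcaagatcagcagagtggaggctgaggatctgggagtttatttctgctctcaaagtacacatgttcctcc
Igkv1-122 (chr6:68016718-68017488, +): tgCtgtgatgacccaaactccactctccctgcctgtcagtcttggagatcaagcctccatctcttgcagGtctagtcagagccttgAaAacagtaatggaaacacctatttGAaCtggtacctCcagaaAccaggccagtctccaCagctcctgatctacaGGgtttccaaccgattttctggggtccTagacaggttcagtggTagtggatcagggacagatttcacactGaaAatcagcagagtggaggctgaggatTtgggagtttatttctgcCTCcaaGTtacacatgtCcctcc

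Other close pairs were compared in the same way. Igkv17-127, the WT leader, is 97.5% identical to Igkv17-121, which had 2 fragments in WT, against 31 in Dspp+/- and 46 in Dspp-/-. WT was the lowest library for Igkv17-121 and the highest for its relative. Igkv12-41 and Igkv12-46 are 95.1% identical and were both highest in WT. The closest relative of both is Igkv12-44, 95.7% identical to Igkv12-41 and 95.4% to Igkv12-46, which had 29, 22 and 56 fragments and so was highest in Dspp-/-. Igkv1-117, 97.2% identical to Igkv1-110, had 10, 156 and 90 fragments, low in WT like its relative. Igkv5-43 is 98.6% identical to Igkv5-45, which had 3, 4 and 0 fragments and so was near the floor in every library. How fragments that fit more than 1 segment were counted is not given in the sources used here. All 100 segments had whole numbers of fragments in the recovered values. Of the 100 segments, 57 share no stretch of 100 bases with another gene, and 3 share over 50% of their 100-base stretches. Of the segments named above, Igkv5-43 shares 33.6%, Igkv6-17 19.1%, Igkv1-110 16.2%, Igkv17-127 14.0% and Igkv12-41 5.65%, so the values of close relatives carry an uncertainty that the intervals leave out.

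Position along the locus was described in 3 stretches. The 37 segments within 1 Mb of Igkc held 46.7% of the Igkv FPKM in WT, with 40.8% in Dspp+/- and 43.6% in Dspp-/-. The 28 segments beyond 2 Mb held 30.8%, 41.1% and 34.8%, and the 35 between held 22.5%, 18.1% and 21.6%. The distal share was highest in Dspp+/-, where Igkv1-110 at 2455 kb from Igkc made up 27.2% of it. In WT, Igkv17-127 at 2865 kb made up 46.2% of the distal share. Segments on the strand opposite to Igkc are joined by inversion of the DNA between, and those on the same strand by deletion. The 39 segments on the same strand as Igkc held 33.4% in WT, against 48.6% in Dspp+/- and 40.0% in Dspp-/-, and the 61 on the opposite strand 66.6%, 51.4% and 59.99%. As shares of fragments the same-strand segments held 34.0% (31.4% to 36.6%), 50.1% (48.5% to 51.7%) and 40.6% (38.7% to 42.6%), and these intervals did not overlap. The position share and the strand share rest on the same few leaders, as 42.7% of the same-strand FPKM of WT was Igkv17-127 and 23.0% of that of Dspp+/- was Igkv1-110.

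**Figure D4:**
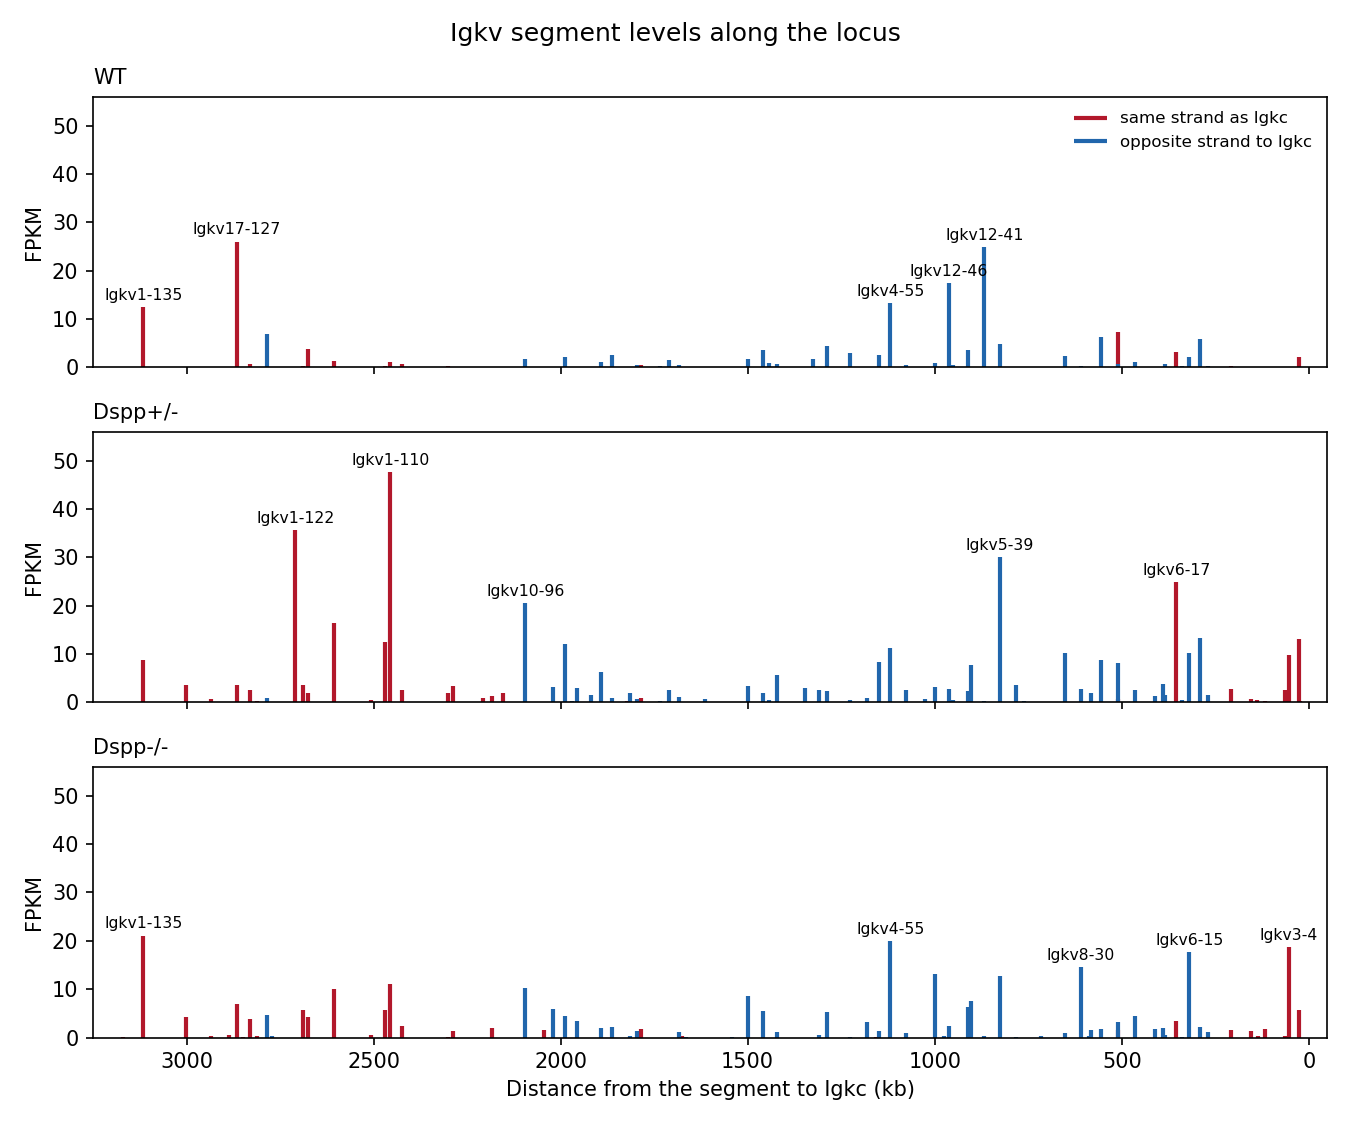
FPKM of each of the 100 Igkv segments (y axis, same scale in each panel) against its distance to Igkc in kb (x axis), with 1 panel per library, colours for the strand relative to Igkc, and names on the 5 highest segments of each library. Igkv1-110 (2455 kb) and Igkv1-122 (2709 kb) are the tallest lines of the Dspp+/- panel, and Igkv17-127 (2865 kb) and Igkv12-41 (868 kb) those of the WT panel.

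Genes of the B lineage were read beside the segments. Over all genes compared, 4.88% were at least 2-fold higher than WT in Dspp+/- and 4.05% in Dspp-/-. Of 12 B cell markers, which include the antigen receptor parts Cd79a and Cd79b, 10 could be compared, and 9 were at least 2-fold higher in Dspp+/- than in WT and 8 in Dspp-/-, with none lower. Their summed level was 26.4 FPKM in WT, 98.6 FPKM in Dspp+/- and 71.1 FPKM in Dspp-/-, and none was at 0 in any library. Cd79a was at 5.49, 21.6 and 12.9 FPKM and Cd79b at 5.90, 21.8 and 15.4 FPKM, the same order of libraries as the Igkv sum. The median log2 ratio to WT of the 10 was 1.34 in Dspp+/- and 1.18 in Dspp-/-. The part of the number of B cells in the Igkv levels was not tested.

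Plasma cell genes did not share this pattern as a list. Of 11 markers 7 could be compared, with 1 higher and 1 lower in Dspp+/- and 1 higher and none lower in Dspp-/-, and the list summed to 124 FPKM in WT, 112 FPKM in Dspp+/- and 115 FPKM in Dspp-/-. Over all genes compared, 4.88% were higher and 2.86% lower in Dspp+/-, and 4.05% and 1.37% in Dspp-/-. Irf4, a transcription factor of plasma cells that other cells also use, was at 1.20, 4.08 and 3.85 FPKM, and was the gene higher in both. Sdc1, a surface proteoglycan that plasma cells share with epithelia and other cells, was at 23.6, 7.79 and 12.5 FPKM. Jchain, which links antibodies into polymers, was at 15.4, 28.4 and 26.0 FPKM, with ratios to WT of 1.84 (1.69 to 2.01) and 1.69 (1.55 to 1.84). Mzb1 and Tnfrsf17, more restricted to antibody-secreting cells, were under the filter, with 2, 13 and 9 fragments and 3, 5 and 7 fragments. Their Dspp+/- ratios to WT were 5.57 (1.26 to 50.9) and 1.43 (0.278 to 9.20). Single members went both ways. The ratios to WT in Dspp+/- and Dspp-/- were 1.92 and 1.98 for Slamf7 and 0.628 and 0.722 for Prdm1. Xbp1 and Txndc5, which serve the secretory pathway in many cell types, supplied most of the list's level, so the sum says little of plasma cells alone. The part of plasma cells in the concentration of Igkv use was not tested.

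Precursor B cell genes were present in all libraries. Of 9 markers, 6 could be compared, and 2 were higher in Dspp+/- and 2 in Dspp-/- than in WT, with none lower. The shares of all genes compared that were higher than in WT were 4.88% in Dspp+/- and 4.05% in Dspp-/-. Il7r, the receptor for interleukin 7, was at 0.77, 2.72 and 3.85 FPKM, and Vpreb3 at 3.57, 8.97 and 10.2 FPKM, and these were the 2 past the threshold in both mutant libraries. Not every member was higher in Dspp+/- than in WT. Vpreb1, a part of the surrogate light chain, was at 1.40, 0.565 and 1.46 FPKM, with a Dspp+/- ratio to WT of 0.403 (0.208 to 0.751). Igll1, the other surrogate light chain part, had 22, 9 and 102 fragments and was under the filter. Dntt, which adds bases at joins, was at 0.819, 0.776 and 2.12 FPKM. Rag1, an enzyme that cuts DNA for the joining of segments, was at 1.82, 3.74 and 3.49 FPKM, under 2-fold on the log2(FPKM + 1) scale. Vpreb2 was listed at 0 in WT and Dspp-/- and had 1 fragment in Dspp+/-. Of 3 T cell markers, 1 could be compared and it passed in neither comparison, and the list summed to 2.41, 3.10 and 2.79 FPKM. Most of the sum was Trac, at 2.17, 2.58 and 2.50 FPKM. Under the filter, Cd3d had 8, 9 and 9 fragments. Cd3e had 2, 30 and 6, with a Dspp+/- ratio to WT of 12.9 (3.26 to 111).

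The other antibody genes gave a setting for the Igkv values. Of 6 genes of the lambda light chain, 5 were at least 2-fold higher in Dspp+/- and 4 in Dspp-/- than in WT, and they summed to 28.7 FPKM in WT, 91.0 FPKM in Dspp+/- and 89.8 FPKM in Dspp-/-. Over all genes compared, 4.88% were higher in Dspp+/- and 4.05% in Dspp-/-. The lambda sum was thus lowest in WT, as the kappa sum was, and level between the mutant libraries. Single lambda genes differed between the mutant libraries. The ratio of Dspp-/- to Dspp+/- was 0.711 for Iglv2 (0.516 to 0.974), 0.749 for Iglc2 (0.601 to 0.932) and 1.24 for Iglv1 (1.04 to 1.48). Iglv3, Iglc1 and Iglc3 did not differ beyond counting error. The 103 heavy chain variable segments (Ighv) of the table were above 3 fragments for 28 segments in WT, against 75 in Dspp+/- and 61 in Dspp-/-, and summed to 130, 266 and 217 FPKM. Their 10 highest held 75.4%, 43.5% and 50.3%, and the inverse Simpson index was 13.0, 35.7 and 25.7. WT was thus the most concentrated library for heavy chain as for kappa segments. The mutant libraries stood in opposite orders, as Dspp+/- was the more even for Ighv and Dspp-/- for Igkv, and whether that order would hold in other animals was not tested.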

How the data were processed

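RNA of pooled mandibular condyles was poly(A)-selected and sequenced in pairs of 150 bases. The submitters' processing notes list FastQC 0.11.5, HISAT2 2.1.0, StringTie 1.3.3b and DESeq 1.28.0 and the build hg38, a human build, although the samples are mouse. The annotation, strand setting and treatment of shared fragments are not given in the sources used here. The authors deposited 1 table whose unit is unnamed. The deposited values were read as FPKM, because FPKM times GENCODE M21 merged exon length gave whole fragments within 0.05 for at least 98.6% of genes under 100 fragments in each library, and for all 100 Igkv segments.

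Libraries were compared by log2 ratios with a pseudocount of 1 FPKM, a mean of at least 1 FPKM and a 2-fold threshold, and intervals are 95% Clopper-Pearson intervals. Segments share a stretch where 100 bases are identical. The segments, lists and tests were chosen with earlier results of these data known. Named segments were the 5 highest in each library, the 5 largest rises and falls against WT, the 3 largest each way between the mutant libraries, and those at or under 3 fragments in a library with at least 50 in another. Igkv1-117, Igkv4-62, Igkv4-77, Igkv5-45, Igkv6-14, Igkv12-44 and Igkv17-121 were added after their values were seen. Joining segments and promoters were not analysed here. Alternatives changed the pseudocount, filter, threshold, scaling, floor, index and set of segments. Scripts, tested on simulated data, used Biopython 1.88, pandas 2.3.3, numpy 2.4.6, matplotlib 3.10.9 and scipy 1.17.1 under Python 3.11.15.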

Additional observations from a re-analysis of the deposited data

How the results depend on the processing

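No paired analysis was possible because each genotype has 1 library, and for the same reason no library could be left out. Of 120 values recomputed under alternatives for the main quantities, 87 were classed as the same, 31 as moved and 2 as turned in direction. For single segments 63 were classed as the same, 67 as moved and none as turned. These classes do not measure how far a value went. The number of segments in Dspp+/- was 73 above 3 fragments and 55 with at least 10 fragments, and was classed as the same. The top-10 share of Dspp+/- went from 53.1% to 50.2% without its highest segment, and was classed as moved. The 2 that turned were the summed Igkv levels divided by Igkc, at a log2 ratio to WT of -0.26 in Dspp+/- and -0.55 in Dspp-/-. The same division gave -0.29 for Dspp-/- against Dspp+/-, which kept its direction. The effective number of segments from Shannon entropy was 23.6 in WT, 39.0 in Dspp+/- and 40.7 in Dspp-/-. Without the highest segment, Dspp+/- had a top-10 share of 50.2% and an inverse Simpson index of 27.3, and the summed log2 ratio of Dspp-/- to WT was 0.91. Scaling without mitochondrially encoded genes moved the median log2 ratio of all genes to 0.15 in Dspp+/- and 0.10 in Dspp-/- and the summed Igkv log2 ratio to 1.34 and 0.82.

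Counts of segments past the threshold depended on the settings. The share of all genes past the threshold was not taken at these other settings, so the background shares given earlier do not apply here. A filter on higher means also leaves fewer segments to count. In Dspp+/- against WT, 14 were higher with a pseudocount of 5 FPKM, 15 higher and 3 lower where means reached 5 FPKM, 19 higher at 4-fold, 10 lower at 1.5-fold, and 20 higher and 13 lower after scaling to the Igkv sum. In Dspp-/- against WT, 12 were higher and 3 lower with a pseudocount of 5 FPKM, 11 and 5 where means reached 5 FPKM, and 13 and 2 at 4-fold. In Dspp-/- against Dspp+/-, 2 were higher and 7 lower with a pseudocount of 5 FPKM, 3 and 8 where means reached 5 FPKM, 18 higher at 1.5-fold, 1 and 7 at 4-fold, and 15 and 9 after scaling to the Igkv sum. Scaling to the Igkv sum compares a segment's share, not its level. Between the mutant libraries that scaling turned the more frequent direction, from 8 higher and 17 lower to 15 and 9.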
